A study of Mus musculus with 16 samples.

Results

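RNA sequencing counts of mIMCD3 cells, an epithelial line derived from the inner medulla of the mouse kidney, were examined for the genes that encode SR proteins, hnRNPs and the kinases and relatives that act with them. Members were the gene symbols that begin with Srsf and a digit or with Hnrnp, together with Clk1 to Clk4, Tra2a, Tra2b, Cirbp and Rbm3. Of 55367 symbols in the count files, 39 were members: 11 SR proteins, 20 hnRNPs, 4 Clk kinases, 2 Tra2 proteins and 2 cold-inducible RNA-binding proteins. Another 3 symbols that contain -ps, which marks a pseudogene, were set aside, and the highest of them, Srsf3-ps, held 19 to 54 counts per library.

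The 16 libraries formed 8 groups of 2, described as biological replicates. Wild-type (WT) cells received DMSO, the solvent, or 10 µM sulforaphane (SFN), an activator of the transcription factor Nrf2, for 5 h, and were then kept isosmotic or moved to hyperosmotic medium for 1 h or 6 h. Nrf2-/- cells, made with lentiviral CRISPR/Cas9 and drug selection, received SFN for 5 h and were kept isosmotic or stressed for 1 h. Nrf2-/- cells given DMSO were not analysed here, whether the Nrf2-/- line is 1 clone is not given in the sources used here, and the 1 h and 6 h stress times have no isosmotic library of their own time. Total counts were between 34484296 and 50774875 per library.

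SR proteins bind exons through RNA recognition motifs and recruit the splicing machinery through a tail rich in arginine and serine. Clk kinases phosphorylate that tail in the nucleus, which releases SR proteins from nuclear speckles, and Clk transcripts themselves carry introns whose retention is known to change with stress and temperature. hnRNPs coat nascent transcripts and often oppose SR proteins at splice sites. Tra2 proteins are SR-like activators of exon inclusion, whereas Cirbp and Rbm3 are RNA-binding proteins known for their rise in the cold. Many SR proteins and hnRNPs regulate their own transcripts through exons that lead to decay, so a gene-level count does not separate productive from unproductive transcripts.

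The labels held up for genotype. Nfe2l2, which encodes Nrf2, was at 11.1, 11.6, 11.02 and 11.1 CPM (counts relative to the library size, scaled with TMM factors) in the 4 Nrf2-/- libraries and between 64.0 and 149 CPM in the 12 WT libraries. Transcripts of an edited gene may persist, so this level checks the label and not the protein. Krt8, a keratin of simple epithelia, was between 650.3 and 1109 CPM in the 16 libraries, whereas the collecting duct water channel Aqp2 was at most 0.323 CPM in any library. Hyperosmotic stress was visible in Akr1b3, the aldose reductase that makes sorbitol, with 340 and 380 CPM in the isosmotic DMSO libraries and 5496 and 5716 CPM at 6 h.

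The Nrf2-/- libraries taken at 1 h stood apart from each other. The biological coefficient of variation within this pair was 0.348, against 0.0395 to 0.128 within the other 7 pairs. Of the 38 members other than the scarce Srsf12, 15 differed by more than 1.5-fold between these 2 libraries, and 0 did in any other pair. Counts of members and the changes of the members named from this pair are therefore given with both libraries and with each left out. Because the fit of all 16 libraries uses 1 estimate of spread per gene, counts of members in comparisons among WT cells are also given from a fit of the 12 WT libraries.

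Per kilobase of exon, Hnrnpab (401 CPM per kb), Hnrnpa1 (355) and Hnrnpa0 (256) had the highest levels among members in isosmotic DMSO cells, and Hnrnpa2b1 followed at 196 CPM per kb. The Clk kinases were near the bottom of that order, at 11.9 CPM per kb for Clk2, 6.82 for Clk1, 5.62 for Clk4 and 3.20 for Clk3. Srsf12 had 0 counts in both isosmotic DMSO libraries and 179 counts in all 16 together. All 39 members passed the filter on low counts, Srsf12 only through the stressed groups. A call of Srsf12 as higher under stress is therefore fixed by the filter, and it is left out of the counts for stress against isosmotic cells unless it is named. The shares of all genes beside these counts still hold genes of that kind. Exons of 17 members overlap those of another gene, among them Srsf2 with Mettl23 and Mfsd11, Hnrnpu with Cox20, Hnrnph3 with Rufy2, Hnrnpab with Phykpl, Clk3 with Edc3 and Rbm3 with its antisense gene Rbm3os. Whether counting used strand is not given in the sources used here, so reads of such pairs cannot be told apart.

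Promoter sequence is shown for 4 members that changed in different directions, Clk4, Srsf2, Hnrnpu and Tra2b. The sequences are from RefSeq on GRCm38.p6, end at the base before the annotated start, run 5′ to 3′ on the gene's strand, and were trimmed where an annotated exon begins. The Clk4 stretch lies inside the GENCODE gene, which starts further upstream. Capitals mark matches on either strand to the GC box (the letters GGGCGG), the CCAAT box (its own letters), the TATA box (the letters TATAAA), the cAMP response element (the letters TGACGTCA), the core of the antioxidant response element bound by Nrf2 (the letters TGACNNNGC) and the core bound by the osmotic factor NFAT5 (the letters TGGAAA). Matches may overlap.
Clk4 promoter, chr11:51263047-51263113, plus strand: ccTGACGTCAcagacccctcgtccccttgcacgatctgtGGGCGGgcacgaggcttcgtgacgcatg
Srsf2 promoter, chr11:116853095-116853294, minus strand: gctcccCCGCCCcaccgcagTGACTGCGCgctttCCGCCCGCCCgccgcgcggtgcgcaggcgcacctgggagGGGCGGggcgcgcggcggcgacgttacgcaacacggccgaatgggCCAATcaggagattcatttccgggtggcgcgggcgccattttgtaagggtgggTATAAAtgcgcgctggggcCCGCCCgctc
Hnrnpu promoter, chr1:178337816-178338065, minus strand: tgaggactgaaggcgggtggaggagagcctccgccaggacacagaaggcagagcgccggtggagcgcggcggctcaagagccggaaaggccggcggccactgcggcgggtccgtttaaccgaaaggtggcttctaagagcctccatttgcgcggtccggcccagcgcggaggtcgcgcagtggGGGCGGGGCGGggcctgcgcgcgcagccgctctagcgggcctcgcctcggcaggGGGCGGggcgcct
Tra2b promoter, chr16:22266006-22266255, minus strand: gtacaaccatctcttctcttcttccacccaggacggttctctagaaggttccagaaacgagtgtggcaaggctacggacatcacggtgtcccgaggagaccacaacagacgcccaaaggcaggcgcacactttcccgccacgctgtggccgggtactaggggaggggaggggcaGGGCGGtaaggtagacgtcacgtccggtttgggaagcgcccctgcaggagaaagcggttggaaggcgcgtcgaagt

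RefSeq promoters were found for 35 of the 39 members, in 48 windows of up to 250 bases. Trimmed stretches were shorter, such as those of Clk4 (67 bases) and Srsf2 (200 bases). GGGCGG was in 40 of the 48 windows and in 32.7% of all 32851 promoter windows, and CCAAT was in 23 of 48 against 33.8% of all. TGACGTCA was in the windows of Clk4 and Tra2a and in 1.55% of all, whereas TATAAA was in 3 of 48 against 12.4%, TGACNNNGC in 10 of 48 against 10.2% and TGGAAA in 5 of 48 against 18.6%. These are matches of letters and say nothing of binding.

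Among the Clk kinases, Clk1 and Clk4 fell to about 0.5 of their isosmotic level within 1 h of stress and, with DMSO, were back at 6 h. Clk1 (chr1:58410189-58424066, GRCm38) was at 56.4 and 54.6 CPM in isosmotic DMSO cells, 29.6 and 27.7 CPM at 1 h and 52.8 and 54.6 CPM at 6 h. Both 1 h libraries lay far below all 4 others, and the 6 h and isosmotic libraries were side by side. The log2 fold change at 1 h was -0.96 ± 0.11 (SE, edgeR quasi-likelihood test, adjusted p = 9.07e-05), and from 1 h to 6 h it was 0.91 ± 0.11 (adjusted p = 1.68e-05). Clk4 (chr11:51261730-51281766), the closest relative of Clk1, was at 31.6 and 33.6 CPM in isosmotic DMSO cells, 16.2 and 16.1 CPM at 1 h and 43.4 and 41.2 CPM at 6 h. The 3 groups did not overlap, and the 6 h libraries were the highest. Clk4 changed by -1.01 ± 0.15 on the log2 scale at 1 h (adjusted p = 0.000589) and by 1.39 ± 0.15 from 1 h to 6 h (adjusted p = 4.67e-06). At 6 h against isosmotic cells, Clk4 differed by 0.38 (adjusted p = 0.0518) in the fit of 16 libraries and by 0.40 (adjusted p = 0.000804) in the fit of the 12 WT libraries. In bulk samples, fewer cells of a type and less RNA per cell cannot be told apart.

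**Figure D1:**
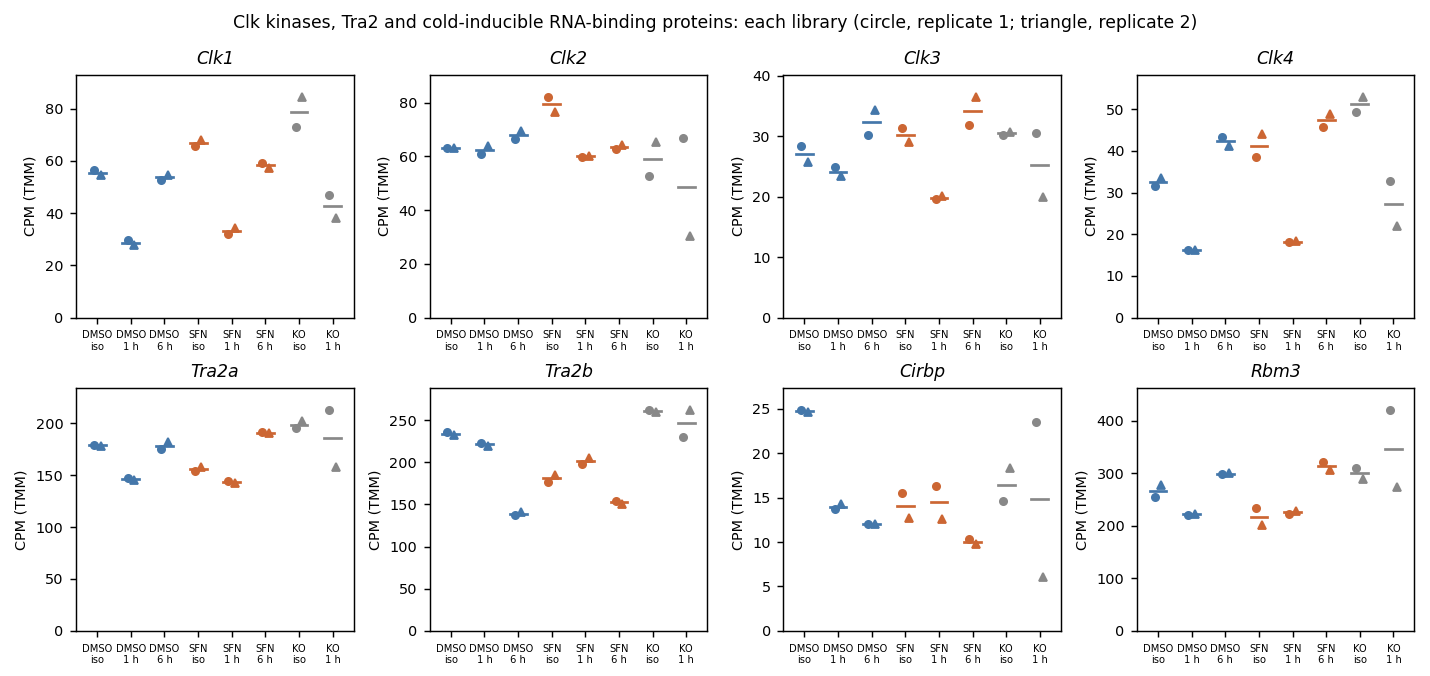
CPM (linear axis from 0) in each library for the 4 Clk kinases, Tra2a, Tra2b, Cirbp and Rbm3, by group; circles are replicate 1, triangles replicate 2 and bars the mean of 2, with WT DMSO in blue, WT SFN in orange and Nrf2-/- SFN in grey. Clk1 and Clk4 were lower at 1 h than in the isosmotic libraries of the same cells in all 3 settings, and the Nrf2-/- 1 h pair is spread widely for Clk2, Cirbp and Rbm3.

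The fall of Clk1 and Clk4 was also present with SFN and in Nrf2-/- cells. With SFN, Clk1 was at 65.7 and 68.1 CPM in isosmotic cells, 31.9 and 34.2 CPM at 1 h and 59.1 and 57.4 CPM at 6 h. Clk4 was at 38.5 and 44.0 CPM, then 18.0 and 18.4 CPM, then 45.8 and 48.9 CPM. The 1 h libraries were again the lowest for both genes, with changes of -1.02 ± 0.11 for Clk1 (adjusted p = 6.69e-05) and -1.18 ± 0.15 for Clk4 (adjusted p = 0.000208). At 6 h with SFN, the fit of the 12 WT libraries called Clk1 and Clk2 lower than in isosmotic cells, against 27.9% of genes. The fit of 16 libraries called 0 of the Clk kinases there. In Nrf2-/- cells Clk1 went from 72.8 and 84.6 CPM to 47.0 and 38.1 CPM, and Clk4 went from 49.3 and 53.0 CPM to 32.7 and 21.9 CPM. Both 1 h libraries were below both isosmotic libraries for each gene, and the changes were -0.89 ± 0.11 for Clk1 (adjusted p = 0.000291) and -0.90 ± 0.15 for Clk4 (adjusted p = 0.00205). Left with replicate 2 alone, the changes were -1.05 and -1.23, and with replicate 1 alone they were -0.74 and -0.64. Fitted on the 4 Nrf2-/- libraries alone, edgeR's adjusted p was 0.11 for Clk1 and 0.17 for Clk4.

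The values of Clk2 and Clk3 are given beside these, and the difference between Clk kinases was not tested. Clk2 was between 60.8 and 69.4 CPM in the 6 DMSO libraries, and its groups lay close together at every time. With SFN it was at 82.3 and 76.4 CPM in isosmotic cells and at 59.8 and 60.3 CPM at 1 h, so the groups did not overlap, but the fall of -0.40 passed the test only in the fit of the 12 WT libraries (adjusted p = 0.00047). Clk3 fell with SFN at 1 h, from 31.5 and 29.1 CPM to 19.6 and 20.1 CPM (-0.61 ± 0.16, adjusted p = 0.0276). With DMSO it was at 28.3 and 25.8 CPM in isosmotic cells, 24.8 and 23.4 CPM at 1 h and 30.2 and 34.4 CPM at 6 h, and its change at 1 h was -0.17 ± 0.16 (adjusted p = 0.605). The difference between the SFN and DMSO changes of Clk3 was -0.44 (adjusted p = 0.704) and, in the fit of the 12 WT libraries, -0.46 (adjusted p = 0.0986). The latter fit called all 4 Clk kinases lower at 1 h with SFN, against 7.81% of genes, and Clk1 and Clk4 with DMSO, against 8.53%.

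In Nrf2-/- cells Clk2 was at 52.6 and 65.3 CPM in isosmotic cells and at 66.97 and 30.4 CPM at 1 h, with a change of -0.27 ± 0.24 (adjusted p = 0.589). Clk3 was at 30.3 and 30.7 CPM, then at 30.5 and 20.01 CPM, with a change of -0.27 ± 0.16 (adjusted p = 0.38). For both genes replicate 2 at 1 h was below both isosmotic libraries and replicate 1 was not. Left with replicate 2 alone, the changes were -0.96 for Clk2 and -0.62 for Clk3. With replicate 1 alone, they were 0.19 and -0.00096. A fit with 1 library at 1 h cannot measure the spread of that group.

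Across all members, 0 of the 38 members other than Srsf12 rose and 4 fell after 1 h of stress with DMSO in edgeR's test, against 7.10% of 19509 genes called higher and 4.11% called lower. With the 12 WT libraries alone, 0 rose and 17 fell, against 14.3% and 8.53% of 18959 genes. The median log2 change was -0.18 over members and 0.00 over all genes tested. The shares include genes that passed the filter only through stressed groups, as Srsf12 did. With 10 or more counts required in every library, 2 members were called in either direction, against 5.36% of 12211 genes. Of the 20 hnRNPs, 0 passed edgeR's test in the fit of 16 libraries (2 had an unadjusted p under 0.05). With the 12 WT libraries 5 fell, namely Hnrnpdl (-0.42, adjusted p = 7.39e-05), Hnrnpa3 (-0.35, adjusted p = 0.00207), Hnrnpf (-0.28, adjusted p = 0.00504), Hnrnph3 (-0.37, adjusted p = 0.0249) and Hnrnph1 (-0.18, adjusted p = 0.0375).

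With SFN, 0 of the 38 rose and 4 fell at 1 h, against 5.94% and 3.58% of all genes, and in the fit of the 12 WT libraries 1 rose and 11 fell, against 10.5% and 7.81%. The members that fell in the fit of 16 libraries were Clk1, Clk3, Clk4 and Srsf2 with SFN and Clk1, Clk4, Srsf2 and Srsf3 with DMSO.

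Among SR proteins, Srsf2 (SC35, a component of nuclear speckles; chr11:116849901-116853094) went down and then up. With DMSO it was at 381 and 377 CPM in isosmotic cells, 295 and 299 CPM at 1 h and 450 and 479 CPM at 6 h. The 3 groups did not overlap, and the order was the same with SFN, at 375 and 390 CPM, 299 and 318 CPM, and 453 and 468 CPM. With DMSO the log2 changes against isosmotic cells were -0.35 ± 0.09 at 1 h (adjusted p = 0.0219) and 0.29 ± 0.09 at 6 h (adjusted p = 0.0161). The call at 1 h was lost with RLE size factors (adjusted p = 0.054) and when any library of the comparison was left out (adjusted p up to 0.16). Srsf3 (SRp20, a factor in splicing and mRNA export; chr17:29032628-29043373) fell at both times, from 452 and 489 CPM to 380 and 355 CPM at 1 h and 299.9 and 314 CPM at 6 h. These groups did not overlap either, and the changes were -0.36 ± 0.10 at 1 h (adjusted p = 0.028) and -0.62 ± 0.10 at 6 h (adjusted p = 0.000123). Like that of Srsf2, its call at 1 h was lost when any library was left out (adjusted p up to 0.22). With SFN it was -0.10 ± 0.10 at 1 h (adjusted p = 0.662) and -0.52 ± 0.10 at 6 h (adjusted p = 0.000484).

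Srsf5 (SRp40, an SR protein that responds to growth signals; chr12:80945504-80950507) was at 324 and 330 CPM in isosmotic DMSO cells, 188 and 190 CPM at 1 h and 285 and 309 CPM at 6 h. The 1 h libraries were the lowest of the 6 by a wide margin. Its change at 1 h of -0.79 ± 0.35 was not called in the fit of 16 libraries (adjusted p = 0.198), in which the Nrf2-/- 1 h pair at 193 and 63.2 CPM enters the spread, and was called in the fit of the 12 WT libraries (-0.77 ± 0.06, adjusted p = 1.67e-08). Srsf12, an SR protein known to oppose other SR proteins at splice sites, was at 0 CPM in both isosmotic DMSO libraries and at 0.679 and 0.530 CPM at 1 h. The 2 isosmotic libraries together allow up to 3 counts. Set against these 3 counts, the pooled level was 17.7-fold higher at 1 h (50 counts) and 6.95-fold higher at 6 h (16 counts). These ratios leave out the counting error of the stressed libraries and the spread between replicates, so they are not lower bounds. They are also no test of a rise, which the filter fixed. Whether both reads of a pair were counted is not given in the sources used here, and 11 of the 12 Srsf12 counts above 0 were even, as were 58.0% to 68.5% of all gene counts from 1 to 10 in each library. With a floor of 3 pairs, or 6 counts, the ratios become 8.87-fold and 3.48-fold. These counts are few, and with SFN the pair at 6 h was uneven, at 0.235 and 0.810 CPM.

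**Figure D2:**
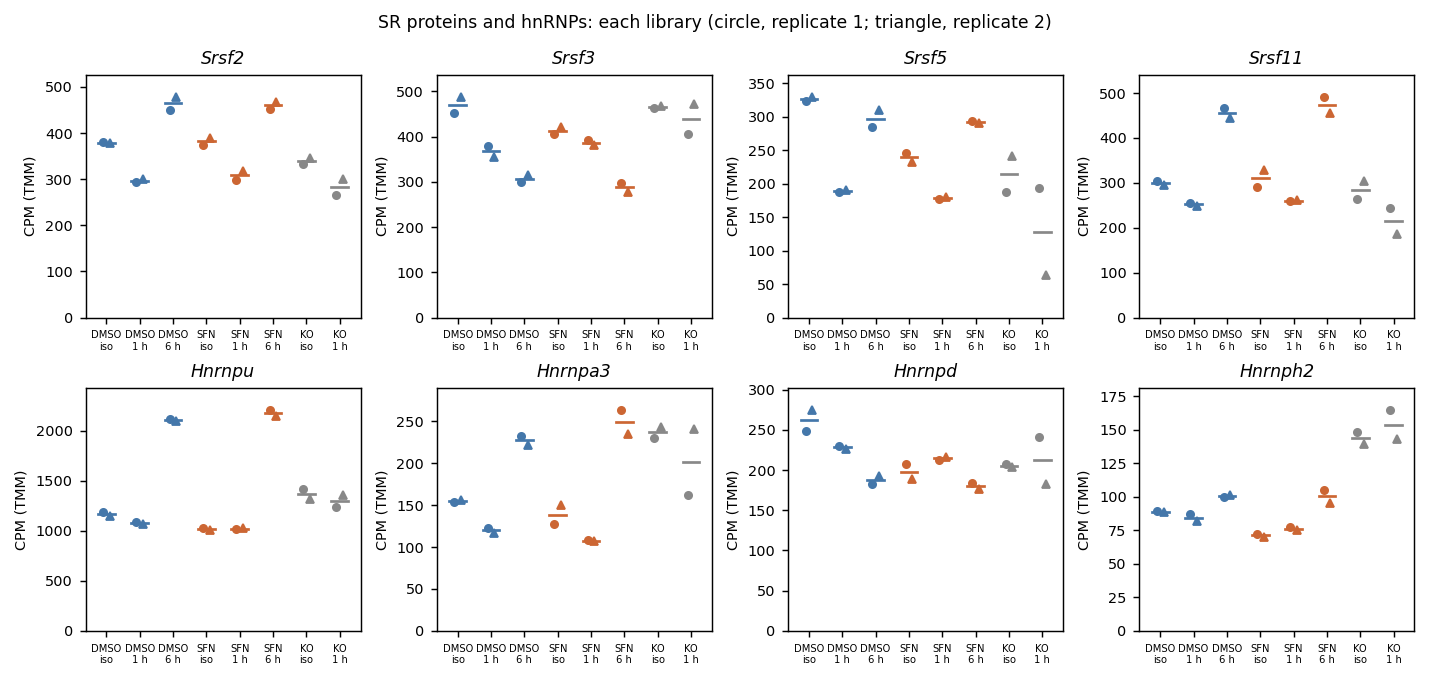
CPM (linear axis from 0) in each library for 4 SR proteins and 4 hnRNPs, by group, with circles for replicate 1, triangles for replicate 2 and bars for the mean of 2; WT DMSO is blue, WT SFN orange and Nrf2-/- SFN grey. Hnrnpu and Srsf11 are highest at 6 h, Srsf3 is lowest there, Srsf5 is low at 1 h, and Hnrnph2 is higher in all 4 Nrf2-/- libraries than in the 12 WT libraries.

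At 6 h with DMSO, 8 of the 38 members were higher and 3 lower than in isosmotic cells, against 23.9% and 22.0% of 19509 genes. The 12 WT libraries alone gave 21 higher and 5 lower, against 30.5% and 27.1% of genes. The members' median was 0.17 and that of all genes 0.05 on the log2 scale. Scaling mattered here, as the median of all genes was 0.14 with RLE size factors and -0.12 with total counts only, and the members' median followed it at 0.26 and -0.02. With Srsf12 included, 9 members were higher and 3 lower with TMM factors. With RLE size factors 16 were higher and 3 lower, against 26.1% and 18.9% of genes, and with total counts only 5 were higher and 6 lower, against 20.2% and 29.1%. The split of higher and lower calls thus moved with the scaling, for members and for all genes.

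With SFN at 6 h, 19 of the 38 members were higher and 2 lower, against 24.7% and 22.9% of genes, and in the fit of the 12 WT libraries 23 were higher and 5 lower, against 31.8% and 27.9%. With total counts only and Srsf12 included, 7 were higher and 6 lower, beside 3901 genes higher and 6105 lower of 19509. From 1 h to 6 h with DMSO, 20 members were higher and 2 lower, against 20.4% and 22.0% of genes, and in the fit of the 12 WT libraries 25 were higher and 4 lower, against 26.5% and 27.9%. With total counts only 10 were higher and 4 lower, beside 3125 genes higher and 5979 lower, with a median of all genes of -0.22. These 3 comparisons and the ones at 1 h share libraries.

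Hnrnpu (SAF-A, a scaffold protein of chromatin and nascent RNA; chr1:178321108-178337797) rose most among hnRNPs at 6 h. With DMSO it was at 1189 and 1150.5 CPM in isosmotic cells, 1083 and 1067 CPM at 1 h and 2122 and 2092 CPM at 6 h. The 6 h libraries were near 1.8 times the isosmotic ones, and the 1 h libraries were just below them. The change at 6 h was 0.85 ± 0.09 (adjusted p = 2.42e-06) with DMSO and 1.098 ± 0.087 (adjusted p = 1.94e-07) with SFN, and it was 0.66 and 0.86 with total counts only. Hnrnpa3, a relative of hnRNP A1, was at 154 and 156 CPM in isosmotic DMSO cells, 123 and 117 CPM at 1 h and 232 and 222 CPM at 6 h. Its groups did not overlap, and the change at 6 h was 0.55 ± 0.15 (adjusted p = 0.00618) with DMSO and 0.84 ± 0.15 (adjusted p = 0.00026) with SFN.

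Hnrnph3, which binds G-rich elements as other H and F proteins do, rose from 1 h to 6 h with DMSO, from 26.4 and 23.8 CPM to 48.8 and 54.6 CPM. The isosmotic libraries lay between, at 32.5 and 33.0 CPM, and the change was 1.04 ± 0.30 (adjusted p = 0.0131), with the call lost without either 1 h library or without replicate 2 at 6 h (adjusted p up to 0.095). Hnrnpd (AUF1, which binds AU-rich elements and promotes decay) went the other way, from 248.5 and 275 CPM to 183 and 193 CPM at 6 h (-0.48 ± 0.12, adjusted p = 0.00338). With SFN its change at 6 h was -0.13 ± 0.12 (adjusted p = 0.363). Srsf11 rose from 305 and 294 CPM to 467 and 445 CPM with DMSO (0.61 ± 0.12, adjusted p = 0.000915). The other members called at 6 h with DMSO were Srsf1, Srsf6, Hnrnpa2b1 and Hnrnpl, all higher, with changes from 0.26 to 0.44.

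Tra2b (chr16:22244549-22266005) fell at 6 h, whereas Tra2a, its paralog, was at 179 and 178 CPM in isosmotic DMSO cells, 147 and 146 CPM at 1 h and 175 and 182 CPM at 6 h and was not called with DMSO in the fit of 16 libraries. The fit of the 12 WT libraries called Tra2a lower at 1 h and higher from 1 h to 6 h with DMSO. With SFN at 6 h, Tra2a was called higher than in isosmotic cells in the fit of 16 (0.29). Tra2b was at 235 and 232 CPM in isosmotic DMSO cells, 223 and 219 CPM at 1 h and 137 and 141 CPM at 6 h. The 6 h libraries were clear of the others, with a change of -0.75 ± 0.09 (adjusted p = 9.58e-06). With SFN it was at 176 and 185 CPM, 197 and 206 CPM, and 155 and 151 CPM, a smaller difference of -0.24 ± 0.09 (adjusted p = 0.0348) from a lower isosmotic level. The difference between the DMSO and SFN changes at 6 h, 0.49 ± 0.085, passed the test in the fit of the 12 WT libraries (adjusted p = 0.00115) and not in that of 16.

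Cirbp was highest in isosmotic DMSO cells, at 24.9 and 24.6 CPM, and lower in the other 10 WT libraries, which held 9.78 to 16.3 CPM. With DMSO it was at 13.7 and 14.2 CPM at 1 h and 12.05 and 12.01 CPM at 6 h, so the 3 groups did not overlap. Fitted on the 12 WT libraries, it fell at 1 h (-0.81 ± 0.13, adjusted p = 0.000152), at 6 h (-1.02 ± 0.13, adjusted p = 1.71e-06) and with SFN in isosmotic cells (-0.80 ± 0.13, adjusted p = 0.000288). In the fit of 16 libraries the adjusted p was 0.252 at 1 h, 0.0589 at 6 h and 0.374 with SFN. Rbm3 was at 255 and 278 CPM in isosmotic DMSO cells, 221 and 223 CPM at 1 h and 298 and 301 CPM at 6 h, and the 3 groups did not overlap. Its rise from 1 h to 6 h was 0.43 ± 0.15 (adjusted p = 0.0309), and with total counts only its difference between 6 h and isosmotic cells was -0.02 in place of 0.17. Against isosmotic DMSO cells, the fit of the 12 WT libraries called Rbm3 lower at 1 h, higher at 6 h and lower with SFN in isosmotic cells. The fit of 16 libraries made none of these calls.

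**Figure D3:**
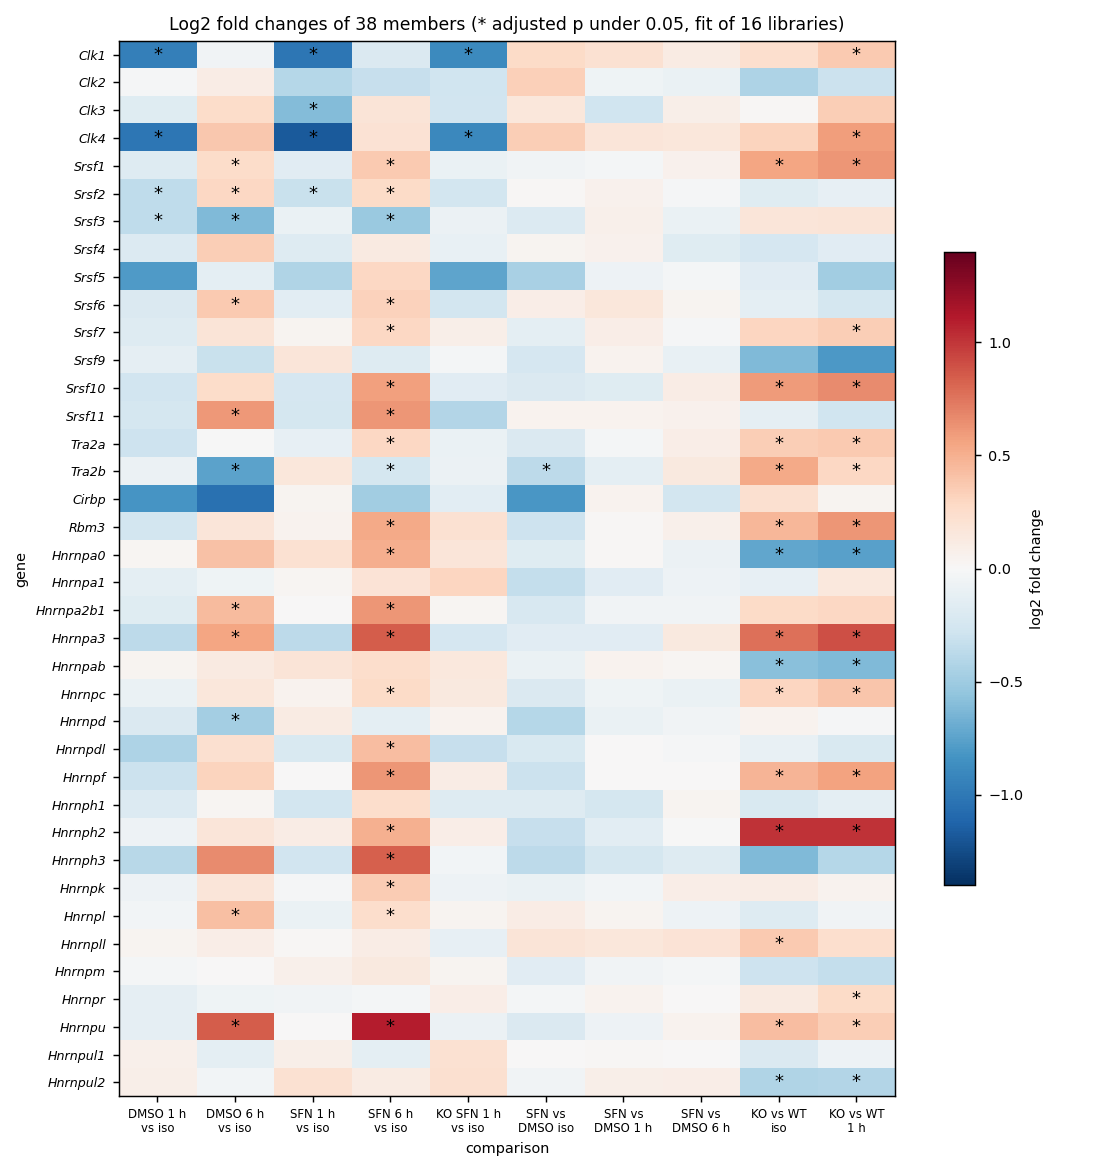
Log2 fold changes (colour, from -1.4 in blue to 1.4 in red) of 38 members, in rows, over 10 comparisons, in columns; stars mark an adjusted p under 0.05 in the fit of 16 libraries and Srsf12 is left out. Both WT columns for 1 h against isosmotic cells have stars at Clk1, Clk4 and Srsf2, with Srsf3 added for DMSO and Clk3 for SFN, the columns at 6 h hold more stars under TMM scaling, and the columns for SFN against DMSO at 1 h and 6 h hold none.

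The effect of SFN by itself was read in isosmotic WT cells. There 0 members were higher and 1, Tra2b, was lower with SFN (-0.37, adjusted p = 0.037), against 1.09% and 1.76% of genes. That call was lost when any of the 4 libraries was left out (adjusted p up to 0.23). The 12 WT libraries alone gave 3 higher and 14 lower, against 8.28% and 6.88% of genes. Those higher were Clk1 (0.29, adjusted p = 0.0141), Clk2 (0.35, adjusted p = 0.00246) and Clk4 (0.36, adjusted p = 0.00955), and those lower included Cirbp, Srsf5 (-0.43, adjusted p = 5.85e-05) and Hnrnpd (-0.38, adjusted p = 0.000529). Srsf5 was at 246 and 232 CPM with SFN, below both DMSO libraries.

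Under stress the SFN and DMSO libraries were close. At 1 h, 0 members were called between them in either direction by edgeR (0 had an unadjusted p under 0.05), against 0.0923% of genes, and 0 in the fit of the 12 WT libraries, against 0.533%. At 6 h, 0 were called (0 at an unadjusted p under 0.05), against 0.0410% of genes, and again 0 against 0.243%. DESeq2 called 0 at both times, against 0.210% of genes at 1 h and 0.108% at 6 h. Fitted on the 4 libraries at 1 h alone, 8 members were called, 2 higher and 6 lower, against 3.04% and 1.91% of 16350 genes.

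Whether stress changed a member differently with SFN was tested as the difference between both changes. With 16 libraries, edgeR called 0 members at 1 h (0 with an unadjusted p under 0.05), against 0.559% of genes, and 0 at 6 h (2 with an unadjusted p under 0.05), against 0.759%. DESeq2 called 0 at 1 h, against 1.30% of genes, and 1 at 6 h, against 1.78%. Among the 12 WT libraries 3 were called at 1 h, against 3.09% of genes, namely Cirbp (0.85, adjusted p = 0.0126), Srsf5 (0.36, adjusted p = 0.0258) and Clk2 (-0.40, adjusted p = 0.0322). At 6 h 5 were called, against 4.24%, namely Tra2b, Srsf5, Rbm3 and Hnrnpd, with a higher change under SFN, and Clk2, with a lower one. For each of these the isosmotic SFN and DMSO libraries differed more than the stressed ones.

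In Nrf2-/- cells, 0 members rose and 2 fell at 1 h, Clk1 and Clk4, against 4.36% and 2.81% of genes. The count depended on the library. Without replicate 1, 1 member was higher and 17 were lower, against 12.6% and 11.3% of 21243 genes. Without replicate 2, 12 were higher and 7 lower, against 12.9% and 8.70% of 21083 genes. In both, a lone 1 h library is assumed to vary like the other groups. Replicate 2 was the lowest of all 16 libraries for 15 of 38 members and replicate 1 the highest for 9. Set against the mean of the isosmotic Nrf2-/- libraries, 27 of 38 members had opposite signs in the 2 libraries, 8 were lower in both and 3 higher in both.

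Srsf5 was at 187 and 241 CPM in isosmotic Nrf2-/- cells and at 193 and 63.2 CPM at 1 h. Cirbp was at 14.6 and 18.3 CPM and then 23.6 and 6.08 CPM. Hnrnph3 was at 17.3 and 15.7 CPM and then 23.4 and 8.68 CPM. For Cirbp and Hnrnph3 the isosmotic libraries lay between the 2 at 1 h, so no direction can be read. Clk1, Clk4 and Srsf2 were among the 8 members lower in both.

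**Figure D4:**
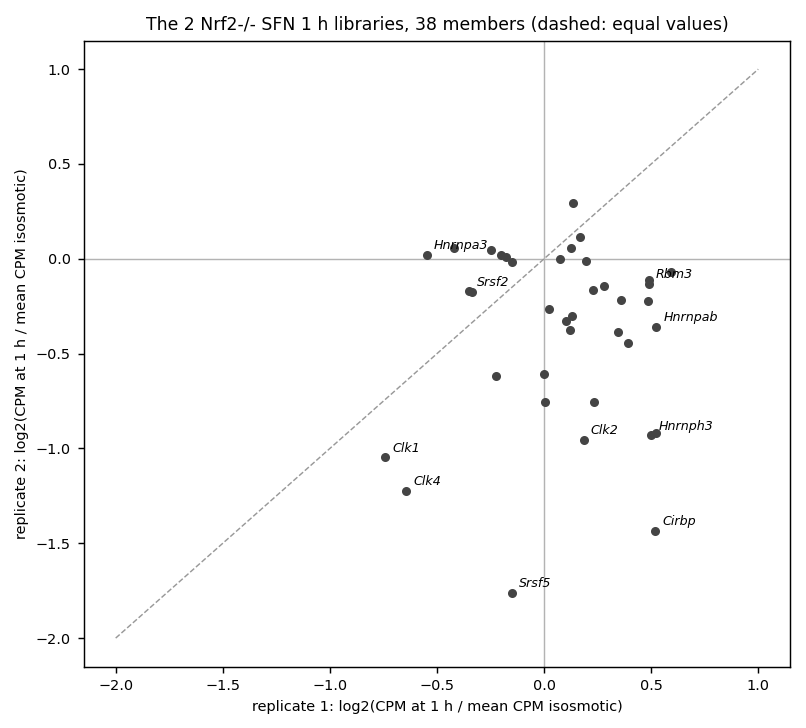
Each point is 1 of 38 members, placed by its log2 ratio of CPM at 1 h to the mean CPM of the isosmotic Nrf2-/- libraries, for replicate 1 (horizontal) and replicate 2 (vertical); the dashed line marks equal values. Most points lie below the dashed line (29 of 38), Clk1 and Clk4 are low on both axes, and Cirbp, Clk2 and Hnrnph3 are above 0 on 1 axis and below 0 on the other.

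The change at 1 h in Nrf2-/- cells was compared with that in WT cells given SFN. Of all members 0 were called different by edgeR (0 with an unadjusted p under 0.05), against 0.123% of genes, and 0 by DESeq2, against 0.646%. Without replicate 1 of the Nrf2-/- 1 h pair 10 were called (1 higher, 9 lower), against 9.75% of genes, and without replicate 2 8 were called, all higher, against 5.82%.

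Levels in Nrf2-/- and WT cells given SFN differed for many members, as they did for many genes. In isosmotic cells 11 members were higher and 3 lower in Nrf2-/- cells, against 15.7% and 18.4% of 19509 genes, and fitted on the 4 libraries alone 14 were higher and 7 lower, against 25.3% and 26.9% of 15409 genes. At 1 h 14 were higher and 3 lower, against 15.3% and 16.2%. Without replicate 1 of the Nrf2-/- 1 h pair 11 were higher and 13 lower, against 19.4% and 22.5%, and without replicate 2 20 were higher and 2 lower, against 14.1% and 14.7%. Genotype, drug selection and the history of the line cannot be told apart in this design.

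Markers of cell identity also differed between the isosmotic Nrf2-/- and WT cells given SFN. Cdh16, a kidney cadherin, was at 20.1 and 20.95 CPM in Nrf2-/- cells and at 202 and 199 CPM in WT cells, and Pax2, a transcription factor of the kidney, was at 27.5 and 26.2 CPM against 139 and 146 CPM. The adhesion proteins Epcam, at 264 and 304 against 50.3 and 47.3 CPM, and Cdh1, at 438 and 438 against 138 and 147 CPM, were higher in both Nrf2-/- libraries. Of 13 collecting duct and epithelial markers tested, edgeR called 2 higher and 5 lower. Lrp2 was at 0.284 and 0.0537 CPM against 6.62 and 7.10 CPM, whereas Col3a1 was at 1.25 and 2.28 CPM against 0 in both WT libraries and Col1a1 at 1.25 and 1.61 CPM against 4.32 and 4.95 CPM. Of 4 fibroblast markers tested, 1 was called lower. Col1a2 and Col3a1 passed the filter on low counts only through Nrf2-/- libraries, so their 2 calls as higher are not counted. Summed levels in Nrf2-/- and WT cells were 2477 and 2361 against 2471 and 2289 CPM for collecting duct and epithelial markers, and 1.59 and 2.36 against 3.97 and 3.58 CPM for leukocyte markers. They were 0.284 and 0.0537 against 6.62 and 7.14 CPM for proximal tubule markers, 2.96 and 4.41 against 4.48 and 5.08 CPM for fibroblast markers and 0.370 and 0.215 against 0.0536 and 0.259 CPM for endothelial markers. The part of these differences in the members' values was not tested.

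Hnrnph2 (chrX:134601179-134607060), an X-linked relative of Hnrnph1, was at 72.6 and 70.0 CPM in isosmotic WT cells given SFN and at 149 and 139 CPM in Nrf2-/- cells. At 1 h it was at 77.6 and 75.2 CPM against 165 and 143 CPM. The groups were far apart at both times, also in the pair that disagreed elsewhere, with differences of 1.01 ± 0.10 (adjusted p = 1.14e-06) and 1.01 ± 0.10 (adjusted p = 1.39e-06). At 1 h the difference was 0.92 without replicate 1 of the Nrf2-/- pair and 1.11 without replicate 2. Each of these fits holds 1 Nrf2-/- library at 1 h and cannot measure the spread of that group. Hnrnpa3 was at 127 and 151 CPM in isosmotic WT cells and at 230 and 244 CPM in Nrf2-/- cells (0.77 ± 0.15, adjusted p = 0.00083). Hnrnpa0, which binds AU-rich elements, was lower in Nrf2-/- cells, at 402 and 333 CPM against 684 and 533 CPM (-0.73 ± 0.18, adjusted p = 0.00686). The groups did not overlap for either gene. The call for Hnrnpa0 was lost without replicate 2 of the Nrf2-/- libraries (adjusted p = 0.085) or without replicate 1 of the WT libraries (adjusted p = 0.09).

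Other genes of the splicing pathway were read from lists. At 1 h with DMSO, 0 rose and 2 fell among 11 kinases of SR proteins and their relatives outside the Clk family, namely Dyrk3 (-0.88 ± 0.12, adjusted p = 0.000292), a kinase that dissolves condensates, and Srpk1 (-0.33 ± 0.10, adjusted p = 0.0479), which phosphorylates SR proteins in the cytoplasm. Among 29 SR-related and exon junction proteins 1 rose and 1 fell, Scaf4 (0.44) and Arglu1 (-0.64). Among 40 other regulators of alternative splicing 0 rose and 2 fell, Rbm25 (-0.36) and Rbm5 (-0.29), and 0 of 36 core spliceosome genes, 0 of 10 genes of nonsense-mediated decay and 0 of 4 import factors passed edgeR's test (2, 2 and 1 had an unadjusted p under 0.05). These counts stand beside 7.10% of genes higher and 4.11% lower.

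The fit of the 12 WT libraries called more genes in these lists at 1 h, beside 14.3% of genes higher and 8.53% lower. It gave 2 kinases higher and 2 lower of 10, leaving out Srpk3, which passed the filter on low counts only through stressed libraries, 3 SR-related and exon junction proteins higher and 6 lower, and 0 other regulators higher and 8 lower. Of the core spliceosome genes 4 were higher and 6 lower, of the genes of nonsense-mediated decay 2 were higher and 1 lower, and of the import factors 2 were higher and 0 lower.

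At 6 h with DMSO, 7 kinases were higher and 1 lower of 10, leaving out Srpk3. Dyrk3 was at 29.7 and 28.6 CPM in isosmotic cells, 16.04 and 15.6 CPM at 1 h and 118 and 112 CPM at 6 h. With DMSO it was thus lowest at 1 h and highest at 6 h, as Clk4 was. Its change at 6 h was 1.98 ± 0.12 (adjusted p = 1.86e-08). In the fit of the 12 WT libraries, the change of Dyrk3 was called higher with SFN than with DMSO at both times. Of all genes, 3.09% at 1 h and 4.24% at 6 h were called there in either direction. Srpk3 held 2 and 0 counts in the isosmotic DMSO libraries and 14 and 19 at 6 h, and, as it passed the filter on low counts only through stressed libraries, its call as higher is not counted. Of the SR-related and exon junction proteins 16 rose and 3 fell, with Rsrp1 at 1.17 ± 0.32 (adjusted p = 0.0112) and Magohb, a core protein of the exon junction complex, at -1.34 ± 0.25 (adjusted p = 0.000472).

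Of the other regulators 11 rose and 8 fell at 6 h. Mbnl2, a muscleblind protein, rose (1.53 ± 0.17, adjusted p = 3.9e-06), and Rbmx, the hnRNP G protein whose symbol the rule does not take in, fell from 48.9 and 53.5 CPM to 20.3 and 20.9 CPM (-1.31 ± 0.11, adjusted p = 3.61e-07). Of the core spliceosome genes 4 rose and 7 fell, with Cwc22 at -0.88 and Prpf31 at -0.78. Of the genes of nonsense-mediated decay 6 rose and 2 fell, with the kinase Smg1 at 1.30, and of the import factors 1 rose and 0 fell, Tnpo2 at 0.52. These counts stand beside 23.9% of genes higher and 22.0% lower at 6 h. In the fit of the 12 WT libraries, beside 30.5% and 27.1% of genes, 8 kinases were higher and 1 lower of 10 without Srpk3, 16 SR-related and exon junction proteins were higher and 7 lower, 17 other regulators higher and 9 lower, and 8 core spliceosome genes higher and 13 lower. The genes of nonsense-mediated decay again had 6 higher and 2 lower, and the import factors had 1 higher and 1 lower.

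Markers of cell identity had other levels at 6 h, with DMSO and with SFN. The summed level of 5 leukocyte markers was 5.10 and 5.57 CPM in isosmotic DMSO cells, 6.22 and 5.46 CPM at 1 h and 13.0 and 11.5 CPM at 6 h, and Ptprc, which defines leukocytes, went from 0.0953 and 0.133 CPM to 5.68 and 4.08 CPM at 6 h. With SFN the sum was 3.97 and 3.58 CPM in isosmotic cells, 4.07 and 3.77 CPM at 1 h and 14.2 and 12.1 CPM at 6 h, and Ptprc went from 0.0536 and 0.0185 CPM to 5.29 and 4.55 CPM at 6 h. Csf1r was the most abundant of them in each library. The 4 endothelial markers, with Pecam1 the most abundant in each stressed library, summed to 0.0476 and 0.177 CPM in isosmotic DMSO cells, 0.520 and 0.742 CPM at 1 h and 4.52 and 4.54 CPM at 6 h. With SFN they summed to 0.0536 and 0.259 CPM, 0.704 and 0.575 CPM, and 4.96 and 5.79 CPM. The 5 proximal tubule markers summed to 7.15 and 5.37 CPM in isosmotic DMSO cells, 7.81 and 8.27 CPM at 1 h and 13.85 and 11.4 CPM at 6 h, and with SFN to 6.62 and 7.14 CPM, 9.18 and 8.60 CPM, and 12.4 and 13.4 CPM. The 7 fibroblast markers summed to 3.19 and 2.81 CPM, 4.34 and 4.05 CPM, and 6.11 and 7.69 CPM with DMSO, and to 4.48 and 5.08 CPM, 2.40 and 3.12 CPM, and 6.28 and 5.26 CPM with SFN. Lrp2 and Col1a1 were the most abundant of these in each of the 12 WT libraries, while Col3a1 was above Col1a1 in 3 of the 4 Nrf2-/- libraries and Slc5a2 above Lrp2 in 1. The 16 collecting duct and epithelial markers summed to 3037 and 3404 CPM in isosmotic DMSO cells, 2839 and 2923 CPM at 1 h and 5219.8 and 5289 CPM at 6 h, with Krt8 the most abundant before 6 h and Pax2 at 6 h (1136 and 1146 CPM, from 119 and 119.7 CPM). With SFN these summed to 2471 and 2289 CPM, 2910 and 2896 CPM, and 4923 and 5184 CPM. None of the lists had a gene at 0 in all libraries. Genes with at least 1 count numbered 21349 and 20729 in the isosmotic DMSO libraries, 24242 and 23576 at 1 h and 25115 and 24274 at 6 h. The part of these shifts in the members' values was not tested.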

How the data were processed

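The authors sequenced RNA from mIMCD3 cells, aligned reads to mm10 (Hisat2 in the methods, Bowtie2 in the submitters' processing notes), sorted them with SAMtools and counted them with featureCounts. The deposited counts are raw, whole-number reads per gene symbol, 1 file per library; versions, annotation and strand setting are not given in the sources used here. One label calls the cells primary, and all others mIMCD3. In all, 5 lines without a gene name were left out.

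Counts were tested in R 4.3.3 with edgeR 4.0.16 (TMM, filterByExpr, robust quasi-likelihood F-test, 19509 genes, 8 groups, 16 libraries), with Benjamini-Hochberg adjustment over all genes and an adjusted p under 0.05 as the call. The ± values are standard errors derived from the log2 fold change and edgeR's F statistic, so they include the spread between libraries. The floor for 0 counts was 3 counts over a group and covers counting error in that group only. With 2 against 2 libraries, an exact permutation test cannot give a two-sided p below 0.333, so none was used. The test was checked on simulated counts. Positions and exon lengths came from GENCODE M21 on GRCm38, promoters from RefSeq.

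The members and lists were chosen with earlier results of these data known. Values per library were given for the Clk, Tra2, Cirbp and Rbm3 genes and for up to 3 Srsf and 3 Hnrnp members with the largest called changes in each DMSO comparison with isosmotic cells; elsewhere the 3 largest called changes were named, and from each pathway list the 2 largest, of which 1 is not reported here. Srsf2 at 6 h, Srsf5, Hnrnpd with SFN and members called only with fewer libraries were named after their values were seen. Alternatives were DESeq2 1.42.0, RLE size factors, other filters on low counts, fewer libraries, a replicate block, each library left out and, chosen after seeing the data, total counts only.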

Additional observations from a re-analysis of the deposited data

How the results depend on the processing

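Counts of called members, Srsf12 included, are given with the share of all genes called in the same fit in parentheses. For 1 h against isosmotic cells with DMSO (5 members, 11.2% of genes), the count was 3 (10.96%) with RLE size factors, 9 (7.93%) with no filter, 2 (5.36%) when each library needed 10 or more counts, 15 (21.7%) with only the libraries compared and 18 (22.9%) with the 12 WT libraries. Leaving out 1 library gave 2 to 3 (4.45% to 5.94%). For 6 h (12, 45.9%) it was 22 (46.5%) with DESeq2, 19 (45.0%) with RLE size factors, 21 (51.04%) with 10 or more counts per library, 26 (60.1%) with only the libraries compared and 27 (57.6%) with the 12 WT libraries. With total counts only it was 14 (46.7%) for 6 h against 1 h (22, 42.4%) and 13 (51.3%) for 6 h with SFN (22, 47.6%), and leaving out 1 library gave 13 to 16 (28.6% to 29.5%) and 10 to 11 (33.0% to 34.8%). For 1 h with SFN (5, 9.52%) it was 2 (4.38%) with 10 or more counts per library, 11 (15.9%) with only the libraries compared, 13 (18.3%) with the 12 WT libraries and 2 (3.33% to 4.67%) with 1 library left out.

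In Nrf2-/- cells at 1 h (2, 7.17%) it was 5 (6.09%) with no filter, 5 (8.02%) with total counts only, 0 (0.0450%) with only the libraries compared and 2 to 20 (2.53% to 23.9%) with 1 library left out. For SFN against DMSO in isosmotic cells (1, 2.84%) it was 4 (5.44%) with DESeq2, 0 (2.604%) with RLE size factors, 2 (3.16%) with no filter, 4 (7.06%) with only the libraries compared, 17 (15.2%) with the 12 WT libraries, 0 (2.26%) with a replicate block and 0 (0.804% to 1.42%) with 1 library left out. At 1 h (0, 0.0923%) it was 8 (4.95%) with only the libraries compared. For Nrf2-/- against WT cells, leaving out 1 library gave 6 to 10 (21.1% to 24.9%) in isosmotic cells (14, 34.1%) and 7 to 24 (18.6% to 42.0%) at 1 h (17, 31.5%), where only the libraries compared gave 1 (10.1%). For the difference between the SFN and DMSO changes (0 at both times, 0.559% and 0.759%), only the libraries compared gave 1 (2.23%) at 1 h and 2 (2.53%) at 6 h, the 12 WT libraries 3 (3.09%) and 5 (4.24%), and DESeq2 1 (1.78%) at 6 h. For the Nrf2-/- difference (0, 0.123%), leaving out 1 library gave 0 to 10 (0.0377% to 9.75%). The cause was not tested.

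Signs were reversed only for changes that were not called. The log2 change of Clk2 at 1 h with DMSO (-0.02) was 0.0157 with DESeq2 and with RLE size factors, 0.0265 with 10 or more counts per library, 0.00187 with only the libraries compared, 0.000824 with the 12 WT libraries, 0.0176 with total counts only and -0.0587 to 0.0209 with 1 library left out. At 6 h Clk1 (-0.05) was 0.0415 with DESeq2 and with RLE size factors and 0.0752 with 10 or more counts per library, and total counts only gave -0.0802 for Clk2 and -0.0157 for Rbm3. Tra2a at 6 h was 0.0852 with DESeq2 and with RLE size factors, 0.119 with 10 or more counts per library, 0.0395 with only the libraries compared, 0.0201 with the 12 WT libraries and -0.0329 to 0.0156 with 1 library left out. Of all alternative values of single genes, 426 kept their direction and call, 22 gained a call, 36 lost one and 18 changed sign.

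Replicate numbers did not pair the libraries, as same-numbered libraries correlated at -0.0794 to 0.123 in their deviations. The replicate block gave 5 members (9.84% of genes) at 1 h and 12 (44.65%) at 6 h with DMSO. For 6 h against 1 h it gave 20 (40.9%) in place of 22, and for 6 h with SFN 19 (46.2%) in place of 22. The block also took the call of Tra2b with SFN in isosmotic cells (adjusted p = 0.056, edgeR). Depth limits Srsf12, which had 179 counts in all 16 libraries.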
